A study of Mus musculus with 12 samples.

Results

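The cytosolic chaperonin CCT, also named TRiC, was described through the mRNAs of its 8 subunits, Tcp1 (the first subunit), Cct2, Cct3, Cct4, Cct5, Cct6a, Cct7 and Cct8. The rule names the genes by symbol and uses no threshold on a measured value, and probes were matched to the symbols through their transcript accessions. In this way 64.8% of the 41174 probes of the array received a symbol, and a CCT probe without a matched transcript would be missed. The subunits are 8 of the 18217 genes so named, and 9 probes were matched to them: 1 for each subunit and a second probe for Cct2. All 9 were rated well above background on all 12 arrays, none of their spots was marked as an outlier, and each probe was printed as 1 spot.

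CCT is a barrel of a pair of stacked rings, each built from the same set of related but distinct subunits in a fixed order. Newly made or unfolded polypeptides enter the cavity, and ATP binding and hydrolysis close the built-in lid so that the chain folds inside. Actin and tubulin are its best known clients and depend on it for folding. The gene products work together as parts of the ring, and the cytoskeleton whose proteins they fold is rebuilt when fibroblast-like preadipocytes turn into round adipocytes.

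The samples came from 3T3-L1, a mouse embryonic fibroblast line (preadipocytes) that can be induced to form adipocytes in culture, grown in DMEM with 10% newborn bovine serum. The 0 h groups were confluent cells without hormones, and the 6 h groups had spent that time in an induction mixture of 0.5 mM isobutylmethylxanthine, 1 µM dexamethasone and 5 µg/ml insulin, made up in DMEM with 10% fetal bovine serum, so the kind of serum changed together with the hormones. Lysates were made with cycloheximide, which holds ribosomes on the mRNA, and were spun through sucrose gradients. Of the gradient, the pool of fractions 5 to 7 stands for non-polysomal RNA, and the pool of 9 to 11 for polysomal RNA, which is bound by several ribosomes. Each of the 4 groups had 3 biological replicates per the study's methods, and each of the 3 slides held 1 array of every group.

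A value below is the log2 of the background-subtracted Cy3 signal after scaling by the spike-ins, viral control RNAs added to the pools. The study's methods describe an amount suited to a given mass of RNA, meant to let relative RNA amounts be compared. They do not say whether it was adjusted to each pool. A value is therefore an amount relative to the spike-ins, and whether it is also relative to the RNA of the pool is not known. Less RNA per cell cannot be told apart from fewer responding cells. The time effect in a fraction is the 6 h minus the 0 h signal. The M-value is the time effect in the polysomal minus that in the non-polysomal fraction, so that an M-value above 0 means that the polysomal to non-polysomal ratio rose. A probe was called at an adjusted p below 0.05 in limma. Levels of different probes are not comparable, since each probe binds its target with its own strength, and only differences are set side by side.

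Over the whole series, 55.7% to 60.8% of the probes of an array were well above background, no spot was saturated, and arrays of one group correlated at r = 0.985 to 0.992 across probes. All 13 probes of the fibroblast and preadipocyte markers were well above background on the 12 arrays. The probes of the macrophage markers Ptprc and Adgre1, of the endothelial markers Kdr and Pecam1 and of the epithelial markers Epcam and Cdh1 were so on 0 or 1 array. Others of the same lists were measured: of the macrophage marker Csf1r, 2 probes were well above background on 12 arrays and 1 on 4, the epithelial Krt14 was so on 12, and the endothelial Cdh5 probes on 2 and 3. Some moved with time in the polysomal fraction: the 2 well measured Csf1r probes rose by 1.78 and 1.36 on the log2 scale (adjusted p = 9.9e-07 and 2.8e-07), Krt14 by 1.29 (adjusted p = 3.8e-05) and 1 Cdh5 probe by 3.62 (adjusted p = 2.9e-07), with an M-value of 3.36 (adjusted p = 3.8e-05). Their part in the CCT values was not tested. Among mature adipocyte markers, Adipoq, Cidec and Plin1 were well above background on 12 arrays and Lep on 0. The spike-ins stood apart in the polysomal 6 h arrays, where their level was 0.46 lower (log2) than the mean of the other groups, and scaling by them added 0.50 to every M-value.

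The CCT mRNAs sat on different chromosomes (build GRCm38.p6, RefSeq annotation). Tcp1 (NM_013686) lies at chr17:12916329-12925067, Cct2 (NM_007636) at chr10:117050997-117063852, Cct3 (NM_009836) at chr3:88297135-88321766 and Cct4 (NM_009837) at chr11:22990593-23003336. Cct5 (NM_007637) lies at chr15:31590800-31601846, Cct6a (NM_009838) at chr5:129787356-129846443, Cct7 (NM_007638) at chr6:85451505-85468477 and Cct8 (NM_009840) at chr16:87483325-87495869. Each of the 8 genes thus has a chromosome of its own.

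The RefSeq promoter windows of the members (250 bases before to 50 after an annotated start) were searched for motifs on both strands. Whether a motif bears on the CCT values was not tested. Windows were at hand for 7 of the 8 genes, 9 windows in all, since Cct2 and Cct5 have several annotated starts. The motif CCAAT, which nuclear factor Y binds, was in 4 of the 9 windows (those of Tcp1, Cct3, Cct6a and Cct7) and in 37.4% of all 32851 windows. The motif GAANNTTC was in 1 window (Cct2) against 7.86% of all, TTCNNGAA in 2 (Cct5 and Cct6a) against 8.52%, and CACGTG, the E-box that Myc and related factors bind, in 0 against 7.15%. GAANNTTC and TTCNNGAA are the head-to-head and tail-to-tail arrangements of the unit that heat shock factor recognises. For each of 6 genes, 1 match is shown with the motif in capitals (as ATTGG where CCAAT lies on the other strand), read along the gene's own strand, to let a reader see where the subunits' promoters are alike and where they are not.
Tcp1, chr17:12916184-12916213 (+): tatccctggctcaCCAATcaccgcagacgt
Cct3, chr3:88297048-88297077 (+): gctaatactgtcgATTGGcctatgtttttg
Cct6a, chr5:129787284-129787313 (+): gcgttggattaagCCAATcagcgggcggca
Cct7, chr6:85451397-85451426 (+): gaaccgggcgctgATTGGccaaaactctta
Cct2, chr10:117063399-117063428 (-): ccccaagtgaaGAAGTTTCtagcaggacct
Cct5, chr15:31601862-31601891 (-): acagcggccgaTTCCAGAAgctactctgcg
These bases are matches of letters and not measured binding sites. The CCAAT matches shown began 132 bases before the start of Tcp1, 74 before that of Cct3, 59 before that of Cct6a and 95 before that of Cct7. The mRNA starts were also read for a terminal oligopyrimidine tract, the 5′ signature of many ribosomal protein mRNAs whose translation follows growth signals. A C at the start followed by at least 4 further pyrimidines was found at 0 of the 9 annotated CCT starts and at 2.51% of all starts.

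The first question was how the polysomal to non-polysomal ratio of the CCT mRNAs shifted within 6 h of induction. The M-value was positive for all 9 probes and passed the test for 8 of them, where 32.1% of all probes were called higher, and 53.7% of those well above background on every array. For 7 of the 9 probes it was also above 1, a shift of more than 2-fold, against 12.1% of all probes. The median M-value of the 9 probes was 1.67, that of all probes 0.49, and no CCT probe was called lower, where 3.98% of all probes were. Cct4 had the highest value and Cct3 the lowest, the only one that missed the threshold. The sign of Cct3 turned with the 75th percentile, with median centring and with quantile normalization, and that of Cct7 with quantile normalization (-0.0036, adjusted p = 0.97), while the other 7 probes stayed positive and called under these scalings.

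**Figure D1:**
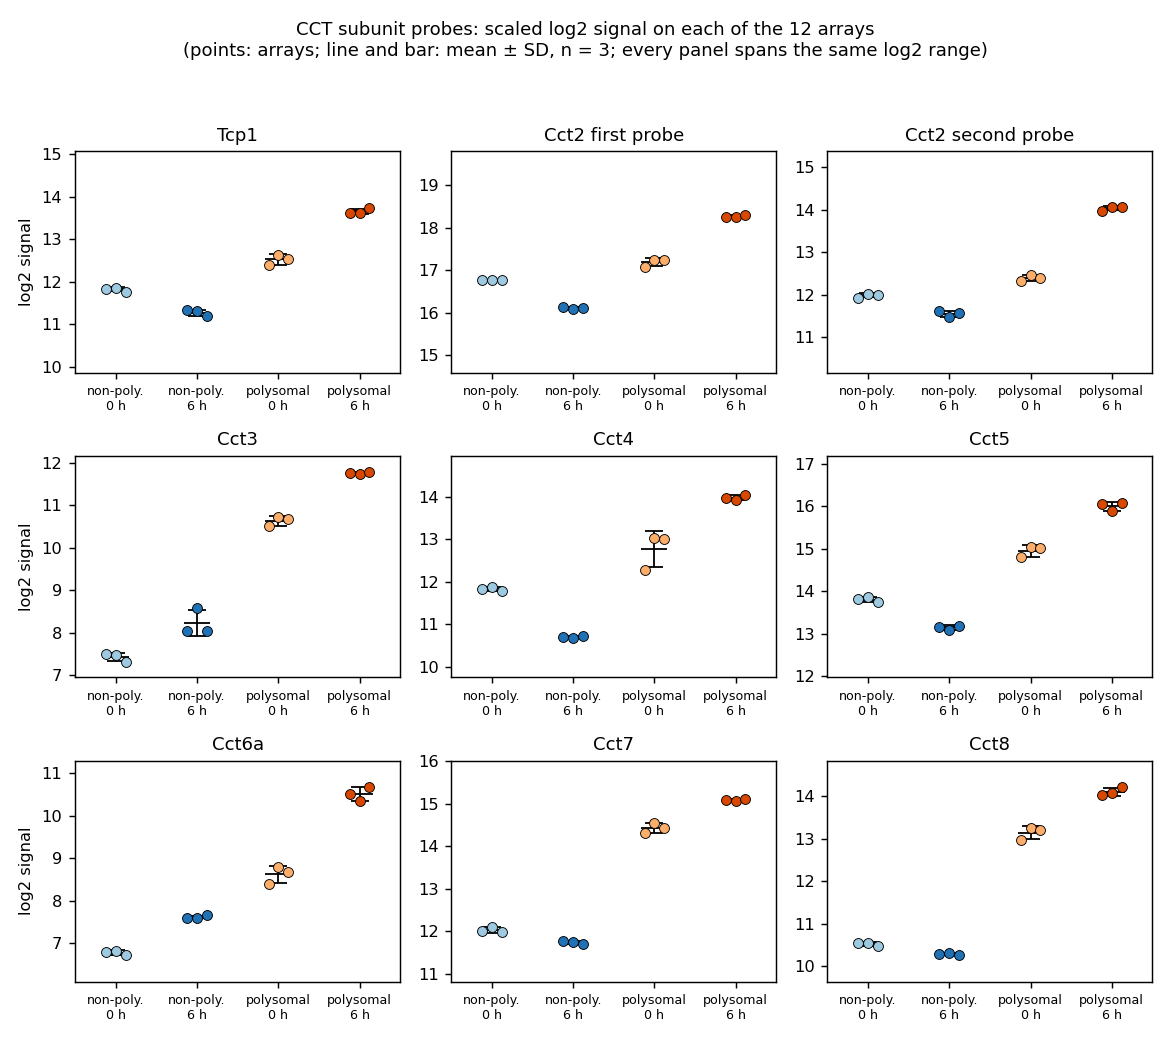
Scaled log2 signal (vertical axis) of each CCT probe on the 12 arrays, in 1 panel per probe, with the 4 groups along the horizontal axis. Points are arrays, and the line with its bar is the mean ± SD of 3 arrays. In every panel the polysomal 6 h arrays are the highest, and in 7 of the 9 panels the non-polysomal 6 h arrays are the lowest, the exceptions being Cct3 and Cct6a.

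The subunits are described in the order in which they stand side by side in the ring, beginning with Tcp1 and its neighbour Cct4, then Cct2 and Cct5. Tcp1, the founding subunit after which the complex was named, had non-polysomal log2 signals of 11.84, 11.87 and 11.77 at 0 h and 11.33, 11.31 and 11.20 at 6 h. In the polysomal fraction its signals were 12.40, 12.64 and 12.55 at 0 h and 13.61, 13.62 and 13.73 at 6 h. The 4 groups did not overlap, and the fractions moved in opposite directions. The polysomal signal rose 2.19-fold (1.13 ± 0.08 on the log2 scale, SE, n = 3 arrays per group, limma adjusted p = 1.1e-06), the non-polysomal signal fell 1.46-fold (adjusted p = 0.00031), and the M-value was 1.67 ± 0.12 (adjusted p = 7.2e-06). Within the 3 slides the M-value was 1.72, 1.55 and 1.75.

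Cct4, like every subunit a distinct gene product with its own place in both rings, had the largest shift. Its non-polysomal signals were 11.83, 11.87 and 11.79 at 0 h and 10.70, 10.67 and 10.71 at 6 h, a 2.20-fold fall (adjusted p = 0.00031) and the only non-polysomal fall of a subunit beyond 2-fold, as 8.14% of all probes had. Its polysomal signals were 12.28, 13.03 and 13.00 at 0 h and 13.96, 13.92 and 14.04 at 6 h, a 2.30-fold rise (adjusted p = 0.00016). Replicate 1 of the polysomal 0 h group lay below the other two, and the SD of that group was 0.42, the largest of any CCT probe and group. The M-value was 2.34 ± 0.24 (adjusted p = 7.1e-05), and without that array it was 2.09 (adjusted p = 4.8e-06).

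For Cct2, the first probe gave non-polysomal signals of 16.77, 16.78 and 16.76 at 0 h and 16.13, 16.08 and 16.11 at 6 h, and polysomal signals of 17.08, 17.25 and 17.25 at 0 h and 18.25, 18.26 and 18.31 at 6 h. The second probe gave 11.93, 12.02 and 12.00, then 11.61, 11.47 and 11.58, in the non-polysomal fraction, and 12.32, 12.46 and 12.40, then 13.97, 14.07 and 14.06, in the polysomal fraction. Both probes showed the same order of the 4 groups with no overlap. Their sizes differed: the polysomal rise was 2.11-fold by the first probe (adjusted p = 3.2e-07) and 3.12-fold by the second (adjusted p = 3.2e-08), and the M-value was 1.74 ± 0.09 (adjusted p = 1.9e-06) and 2.08 ± 0.10 (adjusted p = 1.4e-06). The M-values of the probes within slides, 1.70 to 1.81 and 1.98 to 2.17, did not overlap, so 2 probes of one mRNA set a scale for how far values of different subunits can be read apart.

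Cct5, which stands next to Cct2 in the ring, had non-polysomal signals of 13.81, 13.86 and 13.74 at 0 h and 13.17, 13.09 and 13.19 at 6 h. Its polysomal signals were 14.80, 15.05 and 15.01 at 0 h and 16.04, 15.88 and 16.07 at 6 h. The groups did not overlap, with a polysomal rise of 2.06-fold (adjusted p = 3.6e-06), a non-polysomal fall of 1.57-fold (adjusted p = 0.00016) and an M-value of 1.70 ± 0.13 (adjusted p = 1.1e-05). Of the CCT probes, this one lay closest to the mean pattern of the subunits, at a root mean square distance of 0.239 over the 4 centred group means.

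Cct7, Cct8, Cct6a and Cct3 follow around the ring. Cct7 had non-polysomal signals of 12.00, 12.11 and 11.99 at 0 h and 11.78, 11.74 and 11.71 at 6 h, and polysomal signals of 14.30, 14.54 and 14.42 at 0 h and 15.09, 15.07 and 15.12 at 6 h. Its polysomal rise, 1.59-fold (adjusted p = 3e-05), was the smallest of the 9 probes, and the M-value was 0.96 ± 0.11 (adjusted p = 0.00011). The non-polysomal fall of 1.22-fold had an adjusted p of 0.011 and missed the threshold when any one slide was left out (adjusted p = 0.059 to 0.13), although the groups did not overlap.

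Cct8 had non-polysomal signals of 10.54, 10.56 and 10.47 at 0 h and 10.30, 10.30 and 10.27 at 6 h, a difference of -0.23 ± 0.09 that did not pass the test (adjusted p = 0.061), although the groups did not overlap. Under 6 of the alternatives it did pass, with adjusted p from 9.6e-05 to 0.027. Its polysomal signals were 12.97, 13.26 and 13.21 at 0 h and 14.03, 14.08 and 14.21 at 6 h, a 1.94-fold rise (adjusted p = 6.3e-06), and its M-value was 1.19 ± 0.12 (adjusted p = 7.8e-05).

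Cct6a and Cct3 were the subunits whose mRNA rose in both fractions. Their probes were also the dimmest of the 9 in the non-polysomal fraction at 0 h, with mean log2 signals of 6.78 and 7.44. With normexp background correction on all spots, the non-polysomal change of Cct6a was -0.21 (limma adjusted p = 0.75). The lowest non-polysomal change of Cct3 over the alternatives was 0.04. Cct6a had non-polysomal signals of 6.80, 6.82 and 6.73 at 0 h and 7.60, 7.61 and 7.66 at 6 h, a 1.79-fold rise (adjusted p = 0.00014), and polysomal signals of 8.40, 8.80 and 8.67 at 0 h and 10.51, 10.36 and 10.67 at 6 h, a 3.71-fold rise (adjusted p = 2.6e-07) and the largest of the 9. Because the non-polysomal signal rose as well, the M-value was 1.05 ± 0.16 (adjusted p = 0.00064). The related gene Cct6b, known as a testis form of the same subunit, rose in both fractions too, by 1.28 (adjusted p = 1.2e-07) in the polysomal and 0.89 (adjusted p = 2.6e-06) in the non-polysomal fraction on the log2 scale, and how far the probes of these paralogs share target RNA was not tested.

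Cct3 had non-polysomal signals of 7.50, 7.49 and 7.33 at 0 h and 8.05, 8.58 and 8.05 at 6 h, and polysomal signals of 10.51, 10.73 and 10.67 at 0 h and 11.75, 11.75 and 11.79 at 6 h. The polysomal rise, 2.19-fold (adjusted p = 5.5e-05), was close to that of Tcp1, and the non-polysomal signal rose 1.73-fold (adjusted p = 0.00092), with no overlap of the groups in either fraction. The M-value was therefore small, 0.34 ± 0.20 (adjusted p = 0.18), with a 95% confidence interval from -0.10 to 0.78 and within-slide values of -0.07 to 0.69. Replicate 2 of the non-polysomal 6 h group stood above the other two, and without it the M-value was 0.52 (adjusted p = 0.014). The sign also depended on the scaling, since it was -0.08 (adjusted p = 0.84) with the 75th percentile and -0.31 (adjusted p = 0.31) with quantile normalization, whereas Cct3 was called higher with the authors' deposited log2 values (0.42, adjusted p = 0.027) and with a line through the spike-ins (0.75, adjusted p = 0.0028).

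Ordered by M-value, the probes fell into steps when their within-slide ranges were compared. The probes of the single mRNA Cct2 stood in different steps, so a step between probes does not by itself set their subunits apart. Cct4 and the second Cct2 probe overlapped each other at the top. The first Cct2 probe, Cct5 and Tcp1 (1.67 to 1.74) overlapped among neighbours and lay apart from both those above and those below, Cct8, Cct6a and Cct7 (0.96 to 1.19) formed the next step, and Cct3 lay below all. Read around the ring from Tcp1, the M-values were 1.67 (Tcp1), 2.34 (Cct4), 1.74 and 2.08 (the Cct2 probes), 1.70 (Cct5), 0.96 (Cct7), 1.19 (Cct8), 1.05 (Cct6a) and 0.34 (Cct3). With the spike-in offset, the subunits with an M-value above 1.5 were thus 4 neighbours in the ring, and the other 4 followed each other as well. With a line through the spike-ins in its place, Cct6a also passed 1.5, at 1.58, beside 1.59 for the first Cct2 probe. Both the reading around the ring and the cutoff of 1.5 were made after the values were seen, and the reading was not tested.

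The second question was whether the shift came from one fraction or from both. In the polysomal fraction all 9 probes rose, with a median of 1.13 against 0.54 over all probes and a range from 0.67 to 1.89. Of all probes 50.6% were called higher there, and 62.5% of those well above background on every array. The 6 h arrays lay above all 0 h arrays for each of the 9, as they did for 59.5% of all probes. Quantile normalization, which gives all arrays one distribution, left 4 of these rises called and turned Cct5 (-0.23, adjusted p = 0.0036) and Cct7 (-0.51, adjusted p = 1.6e-06) to a fall. In the non-polysomal fraction 6 probes fell and 2 rose, where 19.7% of all probes were called lower and 20.5% higher. Among probes well above background on every array, 32% were called lower and 36.2% higher. The median of the 9 was -0.43 there, and that of all probes 0.04. Arrays of the 2 times did not overlap for any CCT probe in that fraction: 7 had the 6 h arrays below (23.4% of all probes) and 2 had them above (24.5%). The median polysomal rise within the 3 slides was 1.25, 0.99 and 1.06, and the median non-polysomal change was -0.32, -0.56 and -0.42.

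**Figure D2:**
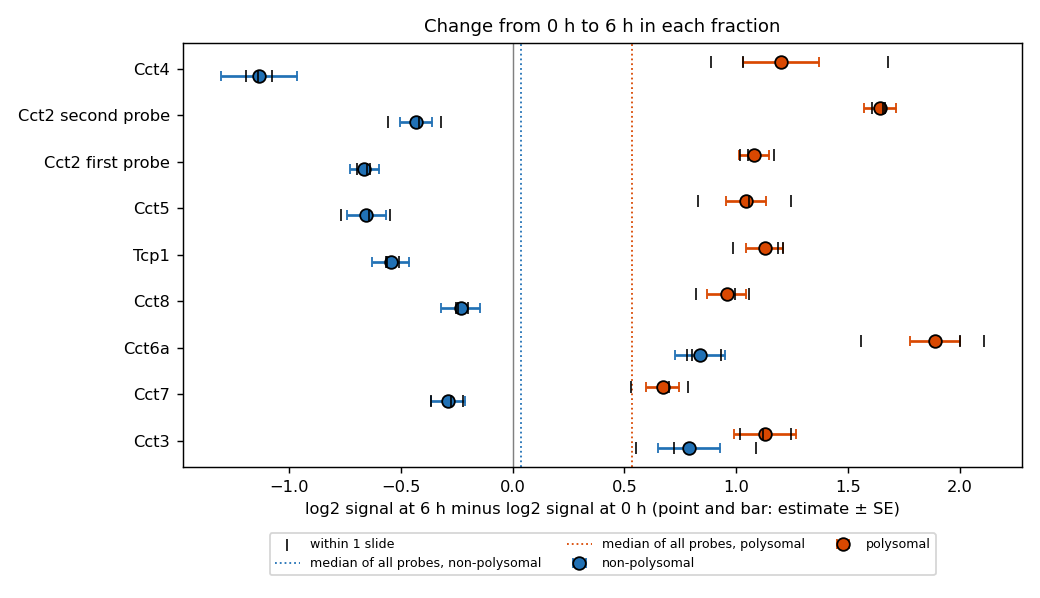
Difference between 6 h and 0 h in log2 signal (horizontal axis) for each CCT probe (vertical axis, by M-value), in the non-polysomal fraction in blue and the polysomal fraction in orange. Points and bars are the estimate ± SE, short black ticks are the values within 1 slide, and dotted lines mark the median of all probes, 0.04 and 0.54. All polysomal values lie above 0.5, and the non-polysomal values lie below 0 except for Cct3 and Cct6a.

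Taken over all 9 probes, the time effect varied more in the non-polysomal than in the polysomal fraction. Its SD was 0.66 in the non-polysomal fraction, where values ran from -1.14 (Cct4) to 0.84 (Cct6a), and 0.36 in the polysomal fraction. The non-polysomal values above 0 were those of Cct6a and Cct3 (0.79), the dimmest probes there at 0 h. Those of the other probes ran from -1.14 to -0.23, and their polysomal values from 0.67 to 1.64, so the wider spread was not seen without Cct6a and Cct3. The order of the M-values differed from that of the polysomal rises. Cct6a, with the largest polysomal rise, had one of the lower M-values, and Cct4, with a polysomal rise of 1.20 near the middle of the range, had the highest.

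The third question was how the CCT mRNAs were spread over the fractions at each time. At 0 h all 9 probes had a higher polysomal than non-polysomal signal, where 37.1% of all probes were called higher and 64% of those well above background on every array. The fractions did not overlap for any of the 9, as for 38.8% of all probes. The excess was 0.41 and 0.42 for the Cct2 probes, 0.70 for Tcp1, 0.94 for Cct4 and 1.15 for Cct5 on the log2 scale, and 1.84 for Cct6a, 2.39 for Cct7, 2.62 for Cct8 and 3.20 for Cct3. Before induction, the Cct3 signal was thus 9.17-fold higher in the polysomal pool (adjusted p = 1.2e-08) and the first Cct2 probe's 1.34-fold (adjusted p = 0.00024). The within-slide ranges of Cct5, Cct4, Tcp1 and the Cct2 probes, 0.32 to 1.27, lay below those of Cct6a, Cct7, Cct8 and Cct3, 1.60 to 3.34.

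The low values at 0 h depended on the scaling. With the 75th percentile in place of the spike-ins, the polysomal excess at 0 h turned to -0.19 for Tcp1 (adjusted p = 0.0043) and to -0.46 and -0.48 for the Cct2 probes (adjusted p = 1.2e-05 and 4e-05), and that of Cct4 became 0.05 (adjusted p = 0.73). Those of Cct3, Cct5, Cct6a, Cct7 and Cct8 kept their direction and their call. The order of the subunits is the same under such a scaling, because it shifts all probes of an array alike.

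At 6 h the 9 probes had moved closer together. The polysomal excess ran from 2.17 (the first Cct2 probe, 4.49-fold) to 3.81 (Cct8, 14.1-fold). All 9 probes were called, and none overlapped between the fractions. Of all probes 60% were called higher and 67.4% had all polysomal arrays above. Among probes well above background on every array, 75.7% were called higher. The SD of the excess across the 9 probes was 0.56 at 6 h and 1.03 at 0 h, its range 1.65 and 2.79. Cct4 went from 0.94 to 3.28 and passed Cct6a and Cct5, while Cct3 went from 3.20 to 3.54. Since the M-value is the 6 h excess minus the 0 h excess, a low 0 h value and a high M-value share the same 0 h arrays and are not separate evidence.

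**Figure D3:**
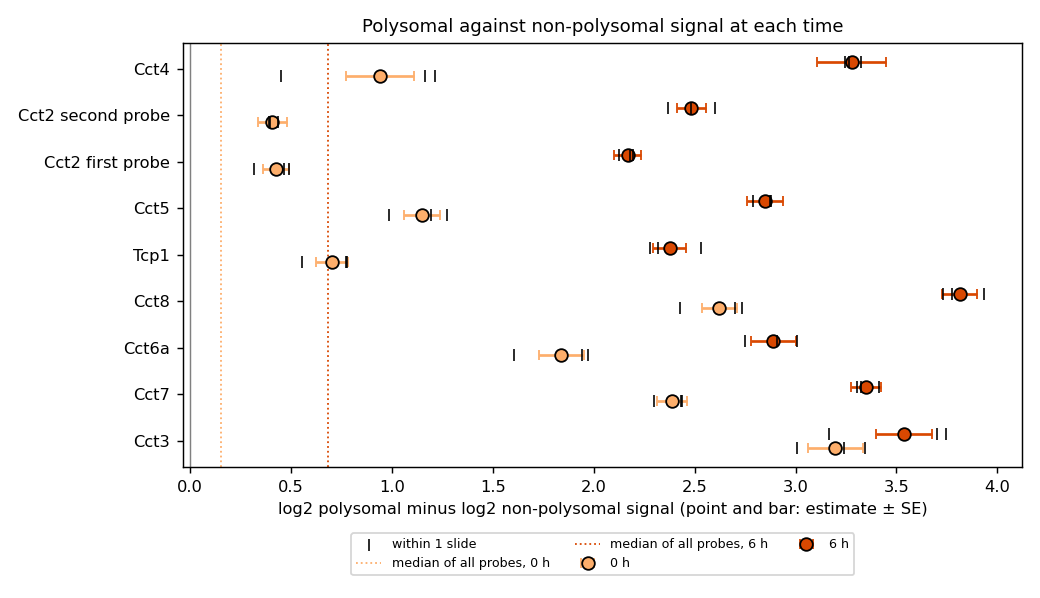
Polysomal minus non-polysomal log2 signal (horizontal axis) for each CCT probe (vertical axis, by M-value), at 0 h in light and at 6 h in dark orange. Points and bars are the estimate ± SE, short black ticks are the values within 1 slide, and dotted lines mark the median of all probes, 0.15 and 0.68. For probes well above background on every array, not drawn, these medians were 0.88 and 1.32. The 0 h values spread from 0.41 to 3.20 and the 6 h values from 2.17 to 3.81.

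The study listed a gene as raised only where the shift was above 4-fold at an adjusted p below 0.05 and 4 orders of the group means also held together. Here the shift of Cct4 (5.05-fold) and of the second Cct2 probe (4.22-fold) was above 4-fold, and that of the other CCT probes was not. For the CCT probes, p6 above p0 and p6 above np6 held for 9 of 9 and np6 below np0 for 7 of 9, where p is polysomal, np non-polysomal and the digit the hour. The remaining order, p0 below np0, held for 0 of 9, and for 3 of 9 with the 75th percentile scaling. With the spike-in scaling, the polysomal signal of every CCT probe already exceeded the non-polysomal one before induction.

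The level of the spike-ins bears on the size of every M-value. The 5 spike-ins with a mean log2 signal between 7.82 and 16.8, the range of most CCT signals, differed by -0.913 to -0.756 on the polysomal 6 h arrays from the others, and the 5 brighter ones by -0.284 to -0.0192, whereas one offset per array was applied to all. When a line was fitted through each array's spike-ins instead, 8 CCT probes had a called M-value above 1, as did 63% of all probes, and the values ran from 0.75 (Cct3) to 2.57 (Cct4). The median of all probes then rose to 1.41, and the CCT median was 1.59. With the 75th percentile, the median of all probes was 0.06 and that of the CCT probes 1.25, and with quantile normalization they were -0.00075 and 0.67. The CCT median thus lay 1.19 above the median of all probes with the spike-in offset. The 75th percentile gave the same distance by construction, since both shift all probes of an array alike. The CCT median lay 0.67 above with quantile normalization and 0.18 above with the line. With normexp background correction on all spots it lay below, at 1.48 against 3.20.

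**Figure D4:**
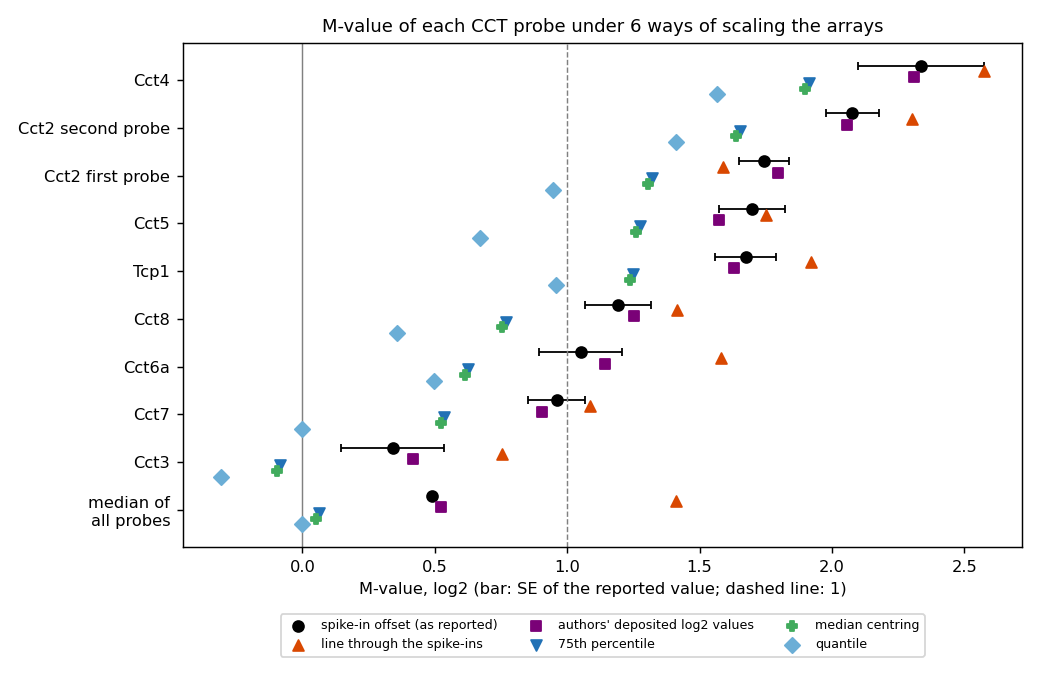
M-value (horizontal axis, log2) of each CCT probe and of the median of all probes (vertical axis) under 6 ways of scaling the arrays, one symbol each, with the SE as a bar on the reported value. Cct4 is the highest under 6 of 6 and Cct3 the lowest of the CCT probes under 6 of 6, and with a line through the spike-ins the median of all probes moves to 1.41.

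The partners of CCT in protein folding were compared by their M-values. Actins and tubulins, its main clients, had 18 of 20 probes called higher and 1 lower, with a median of 1.68. The highest was Tubb5, a β-tubulin, at 2.86 (adjusted p = 8.7e-07), and the lowest was Actb, the cytoplasmic β-actin, at -0.82 (adjusted p = 0.00015). Both probes of Actg1, the other cytoplasmic actin and named after its values were seen, were higher, at 1.75 and 2.00 (adjusted p = 2.2e-06 and 4.2e-06). Tubulin paralogs are alike in sequence, and how far their probes share target RNA was not tested.

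Prefoldin, a cofactor that hands nascent actin and tubulin to CCT, had 7 of 8 probes called higher, with a median of 0.72. Its values ran from 0.23 for Pfdn1 (adjusted p = 0.18) to 1.39 for Pfdn5 (adjusted p = 9e-05). At 0 h, 4 of the prefoldin probes were lower and 3 higher in the polysomal than in the non-polysomal fraction, while all 9 CCT probes were higher. Phosducin-like proteins bind CCT and modulate its folding of clients. Of their 8 probes 5 were called higher, a share near the 53.7% of all probes well above background on every array. Their median was 0.87, from 0.08 for 1 Pdcl probe (adjusted p = 0.6) to 1.29 for 1 Txndc9 probe (adjusted p = 0.00071). The other Pdcl probe was at 0.80 (adjusted p = 0.079). Further Txndc9 probes were at 0.93 and 0.81 (adjusted p = 0.00065 and 0.00063).

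The tubulin folding cofactors take tubulin over from CCT, and 3 of 5 were called higher, again near that share, with a median of 0.83, from -0.47 for Tbcc (adjusted p = 0.05, not below the limit) to 1.55 for Tbcb (adjusted p = 5.7e-06). Other clients, such as cell cycle regulators and G protein β subunits, had 10 of 12 probes called higher, with a median of 0.79. Values ran from 0.26 for 1 Fzr1 probe (adjusted p = 0.09) to 1.10 for Gnb2 (adjusted p = 9.2e-05). The other Fzr1 probe was near the top of that list, at 1.06 (adjusted p = 8.4e-05). Factors that meet the chain at the ribosome had 5 of 5 called higher, with a median of 0.79, from 0.43 for Hspa14 (adjusted p = 0.034) to 1.49 for Naca (adjusted p = 8.8e-06). The median of each of these lists stayed above 0 under the 5 other scalings drawn above, but the calls did not: with quantile normalization 3 probes of the other clients were called higher and 3 lower, and 2 of the nascent chain factors higher and 1 lower. With the line through the spike-ins the median of all probes was 1.41. The medians of prefoldin (1.17), the tubulin cofactors (1.06), the other clients (1.17) and the nascent chain factors (1.315) lay below it. Those of the actins and tubulins (1.84) and the phosducin-like proteins (1.53) lay above it.

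The mitochondrial chaperonin, which folds proteins inside that organelle, split. The probes of Hspd1, its barrel subunit, had M-values of 1.58 and 0.96 (adjusted p = 2.2e-05 and 6.5e-05), and Hspe1, its lid, 0.08 (adjusted p = 0.63). The chaperonin-like genes, which are the testis form Cct6b and genes related to CCT outside the ring, had 1 of 7 probes called higher, with a median of -0.21, from -0.56 for Bbs10 (adjusted p = 0.064) to 0.40 for Cct6b (adjusted p = 0.0094). The sign of that median turned with the scaling, being 0.50 with the line through the spike-ins and -0.64 with the 75th percentile. The CCT median of 1.67 was thus near that of the actins and tubulins and above those of the 7 other lists, and this difference between lists was not tested.

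**Figure D5:**
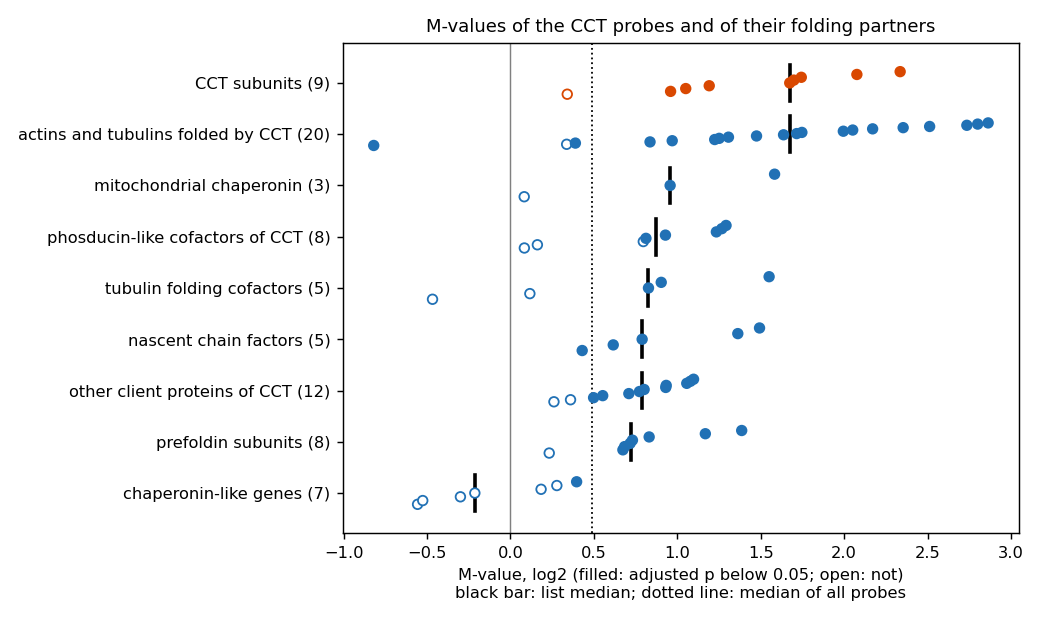
M-value (horizontal axis, log2) of every probe of the CCT subunits and of 8 lists of folding partners and related genes (vertical axis, number of probes in brackets). Filled points were called, open points were not, the black bar is the list's median and the dotted line the median of all probes, 0.49. CCT subunits and actins with tubulins have medians of 1.67 and 1.68, the other lists 0.96 or less.

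The other mRNAs whose 4 centred group means lay nearest to the average of the CCT subunits were found among 20116 candidate probes. Nudt5, U79523 (an accession with no symbol) and Yif1b were the nearest, at root mean square distances of 0.0454, 0.0454 and 0.046 on the log2 scale, followed by F8a (0.0506), Ergic3 (0.051), Prdx2 (0.0548), NAP030857-1 (0.0604), Rab11a (0.0619), Rpe (0.0625) and Necap2 (0.0686). The CCT probes themselves lay 0.239 to 0.62 from their own average, farther than these. The average pattern is thus shared by many mRNAs, and no single subunit follows it closely: 584 probes were nearer to it than Cct5.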

How the data were processed

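RNA of 3T3-L1 cells at 0 h and 6 h, in non-polysomal and polysomal pools with 3 replicates each, was measured on 12 one-color Agilent arrays. The authors deposited scanner files (Feature Extraction 10.7.1.1) with an intensity for each of 45018 spots, of which 1639 were controls, and a table of log2 values, which are the log2 median pixel intensity plus a constant per array. The background-subtracted intensity was taken to log2, 94 to 221 outlier spots per array were left out, spots of a probe were averaged, and each array was shifted by the mean of 10 spike-in transcripts (32 spots each).

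All 4 groups were fitted together in R 4.3.3 with limma 3.58.1 (lmFit, eBayes), p-values were adjusted by Benjamini-Hochberg over all probes, and the files were read with data.table (version 1.17.8). A difference was called at an adjusted p below 0.05. In data simulated with the spread of 40808 probes, 52%, 60%, 74% and 84% of probes given an M-value of 1, 1.5, 2 and 2.5 were called. Only 50 probes were changed per size, whereas 32.1% were called higher in the data, and dim probes were included. These shares therefore do not give the recovery for the CCT probes. Precision is limited by the number of arrays and by signal over background, with a 75th percentile per array of 227.6 to 529.7 intensity units.

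The members and gene lists were chosen with earlier results of these data known. Named in the text were all CCT probes, the highest and lowest M-value of each other list among probes well above background in a group, and the 10 nearest patterns. For some of these genes further probes were given. Alternatives were other scalings and background corrections, the authors' log2 values, probe and spot filters, the replicate block, a variance trend and leaving out arrays or replicate numbers. Arrays of one replicate number share a slide, but the numbers were not taken to pair the samples in the main fit. Of 18 same-number pairs, 4 correlated above 0.1, with values from -0.10 to 0.42. However, 9 of 12 arrays correlated best on average with arrays of their own number, and a fit with the number as a block is given below.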

Additional observations from a re-analysis of the deposited data

Results flagged for a closer look

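The time effect differed between the polysomal and the non-polysomal fraction by limma's test of the M-value for 8 of the 9 CCT probes. The differences were 1.67 for Tcp1, 1.74 and 2.08 for the first and second probe of Cct2, 2.34 for Cct4, 1.70 for Cct5, 1.05 for Cct6a, 0.96 for Cct7 and 1.19 for Cct8, all on the log2 scale, with adjusted p from 1.4e-06 to 0.00064. Their 3 within-slide values were positive for each of these probes. Groups of 3 arrays were not tested for an outlying array.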

How the results depend on the processing

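Under 26 alternatives, 1116 of 1170 values of single CCT probes kept their direction and their side of the threshold, 33 lost and 10 gained the call, and 11 changed sign. Quantile normalization left 2 M-values above 1, 4 polysomal rises and 2 falls, and 1 probe lower in polysomes at 0 h. It turned the M-value of Cct3 to -0.31 and of Cct7 to -0.0036, the polysomal change of Cct5 to -0.23 and of Cct7 to -0.51, and the 0 h excess of the second Cct2 probe to -0.31. With the 75th percentile, 5 probes were higher and 3 lower in polysomes at 0 h, where Tcp1 was at -0.19 and the Cct2 probes at -0.46 and -0.48, and the M-value of Cct3 was -0.084. Median centring, added after seeing the data, gave Cct3 -0.097. Normexp (offset 50, on median in place of mean signals) left a median of corrected signals on 3 arrays far above that of the others. With it, 0.245% of all probes had a called M-value and the CCT median was 1.48, where 1 CCT M-value above 1 was called, 5 polysomal rises, 0 non-polysomal rises and 1 fall, and 5 probes higher at 0 h, and the non-polysomal change of Cct6a was -0.21. Normexp without spots of uneven background, also added after seeing the data, reversed none. Quantile normalization, the 75th percentile and median centring set the arrays to a like overall level by construction. The cause of the other differences was not tested.

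Leaving out arrays or replicate numbers gave 6 to 8 M-values above 1, 5 to 7 non-polysomal falls and 2 rises, and 9 polysomal rises. With the replicate number (also the slide) as a block, 7 M-values were above 1. In that fit the median M-value of all probes was 0.4875. Of 12 arrays, 9 had their highest mean correlation, over arrays of other groups, with those of their own number. All 9 CCT probes were rated well above background on the 12 arrays. Even so, the non-polysomal rise of Cct6a, the dimmest in that fraction at 0 h, depended on the background correction.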
